A study of Mus musculus with 7 samples.

Results

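Ferritin and iron handling genes were examined in the cervical spinal cord of *Neat1*-KO; hSOD1G93A mice and *Neat1*-WT; hSOD1G93A mice. The group holds 10 genes of the 55487 in the count table. They were listed by name with earlier results of these libraries known, and *Ftl1* was chosen by its measured difference between the genotypes, so that its values are described here without a test. The other 9 genes were listed for their part in iron handling. RNA came from 4 *Neat1*-KO; hSOD1G93A mice, numbered 1 to 4 in the labels, and from 3 *Neat1*-WT; hSOD1G93A mice, numbered 2 to 4, all at 8 weeks of age, with a library for each sample. Every mouse carried the hSOD1G93A transgene, a human *SOD1* gene with a mutation of familial ALS, kept hemizygous in a line bred with B6/SJLF1 females. *Neat1* was either intact or knocked out on both chromosomes after crosses of heterozygous parents. No mice without the transgene were sequenced here, so the comparison is between *Neat1* genotypes within the disease model.

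The libraries held 19661878 to 26031517 counts each, with mitochondrial genes taking between 3.694% and 5.239% of them. *Neat1*, the knocked-out gene, had 4.04 to 5.52 CPM (counts scaled to library size after TMM) in the *Neat1*-KO libraries and 80.5 to 118 CPM in the *Neat1*-WT libraries. *Xist* had at most 4 counts in any library. The summed cervical Hox genes had 168.9 to 218.5 CPM and the lumbar ones 0.769 to 2.47 CPM, and markers of neurons, oligodendrocytes and astrocytes were present in all 7 libraries. A gene was called at an edgeR adjusted p under 0.1 with an absolute log2 fold change over 0.58. Of 18449 genes tested, 6 were called, which is 0.0325%, with 2 higher and 4 lower in *Neat1*-KO, and 1010 genes had libraries that did not overlap between the genotypes, which is 5.47%. The median log2 difference over all tested genes was 0.0062.

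Cells take up iron as transferrin, the product of *Trf*, bound to its receptor, the product of *Tfrc*. The divalent metal transporter encoded by *Slc11a2* moves iron from the endosome into the cytosol, ferritin stores it in a shell of heavy and light chains, and ferroportin (*Slc40a1*) exports it with the help of the ferroxidase ceruloplasmin (*Cp*). The receptor encoded by *Ncoa4* brings ferritin to the lysosome to release its iron. The iron regulatory proteins, encoded by *Aco1* and *Ireb2*, bind a hairpin called the iron-responsive element when iron is low, which blocks translation where it lies in a 5′ UTR and protects the mRNA where it lies in a 3′ UTR. In the central nervous system, oligodendrocytes are rich in iron and ferritin and are the main source of transferrin.

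The hairpin was searched for on the sense strand of all transcripts as the loop CAGTGN, with N not G, closed by 5 paired bases, an unpaired C on the 5′ side, and at least 4 of 6 pairs in the lower stem, over 30 bases. It was found in 55 of 21901 protein-coding genes, which is 0.251%, and in 4 of the 10 genes of the group. The matches are shown because they are the sequences by which iron acts on these mRNAs after transcription. They lie in GENCODE M21 transcripts on mm10 (GRCm38), and capitals mark the loop.
Ftl1, 5′ UTR, chr7:45459778-45459807, minus strand: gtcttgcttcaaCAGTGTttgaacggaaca
Fth1, 5′ UTR, chr19:9982732-9982761, plus strand: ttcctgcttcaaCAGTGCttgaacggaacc
Slc40a1, 5′ UTR, chr1:45925464-45925493, minus strand: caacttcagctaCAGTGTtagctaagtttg
Tfrc, 3′ UTR, chr16:32631219-32631248, plus strand: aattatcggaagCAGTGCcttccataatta
Tfrc, 3′ UTR, chr16:32631598-32631627, plus strand: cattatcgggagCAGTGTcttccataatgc
Tfrc, 3′ UTR, chr16:32631663-32631692, plus strand: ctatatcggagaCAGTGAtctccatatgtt
Tfrc, 3′ UTR, chr16:32631710-32631739, plus strand: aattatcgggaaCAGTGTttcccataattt
The *Ftl1* and *Fth1* hairpins share the upper stem on both sides of the loop, and *Ftl1-ps1*, a near copy of *Ftl1* on chromosome 13, holds the *Ftl1* hairpin letter for letter. The other members had no match to this pattern, which says only that these letters are not in their annotated transcripts.

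*Ftl1*, the ferritin light chain, was the member that differed most between the genotypes, with a *Neat1*-KO mean of 142.2 ± 34.3 CPM (SD, n = 4) beside a *Neat1*-WT mean of 88.1 ± 7.75 CPM (SD, n = 3). *Fth1*, the heavy chain that oxidizes iron on its way into the same shell, did not pass the test, and none of the receptor, transporter, regulator or ferritinophagy genes did either. Of the 10 members, 0 were called by edgeR, against 0.0325% of all tested genes. Of the 9 members other than *Ftl1*, 0 had an unadjusted p under 0.05, beside 4.64% of all tested genes. DESeq2 called 27 of all tested genes, which is 0.146%, and 1 member, *Ftl1*, from which nothing is read because the gene was chosen on this difference. The log2 difference was above 0 for 6 members and below 0 for 4, with a median of 0.014. Libraries did not overlap between the genotypes for 1 of the 10, *Ncoa4*, beside 5.47% of all tested genes. RNA here comes from whole tissue, so that fewer cells of a type and less RNA per cell cannot be told apart.

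**Figure D1:**
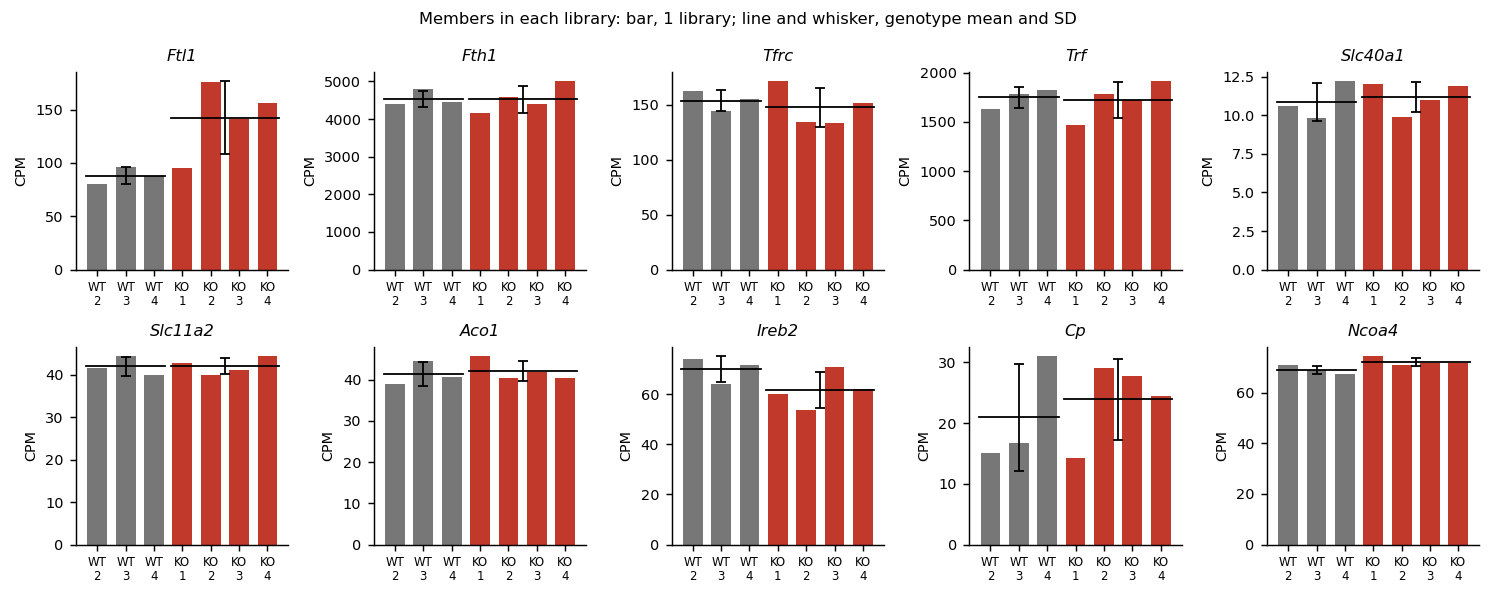
CPM of each of the 10 genes (vertical axis, starting at 0 in each panel) in the 3 *Neat1*-WT libraries (grey) and the 4 *Neat1*-KO libraries (red), 1 bar per library, with a line at the genotype mean and a whisker of 1 SD. *Ftl1* is high in *Neat1*-KO 2, 3 and 4, with *Neat1*-KO 1 at 95.5 CPM below *Neat1*-WT 3 at 96.2 CPM, while the bars of *Fth1*, *Trf*, *Slc11a2*, *Aco1* and *Ncoa4* stand at similar heights in all libraries.

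Per exon length, the genes of the group covered a wide range of levels, in RPKM, that is CPM divided by the length of all annotated exons in kilobases. *Fth1* was the most abundant, with a median of 1282 RPKM over the 7 libraries, and *Trf* followed with 536.8 RPKM. *Ftl1* had a median of 71.8 RPKM, *Tfrc* of 24.5 and *Aco1* of 9.03. *Ncoa4* had a median of 7.56 RPKM, *Ireb2* of 6.75, *Slc11a2* of 6.56, *Cp* of 2.56 and *Slc40a1* of 1.22. *Ireb2*, between 5.65 and 7.79 RPKM, overlapped both *Ncoa4* and *Slc11a2*, so its place next to them is within the spread of the libraries, while *Ncoa4* was above *Slc11a2* in every library. All other neighbours in the order were apart in every library. The *Ftl1* level counts uniquely mapped reads, so a read that matches a copy equally well is missing from it.

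**Figure D2:**
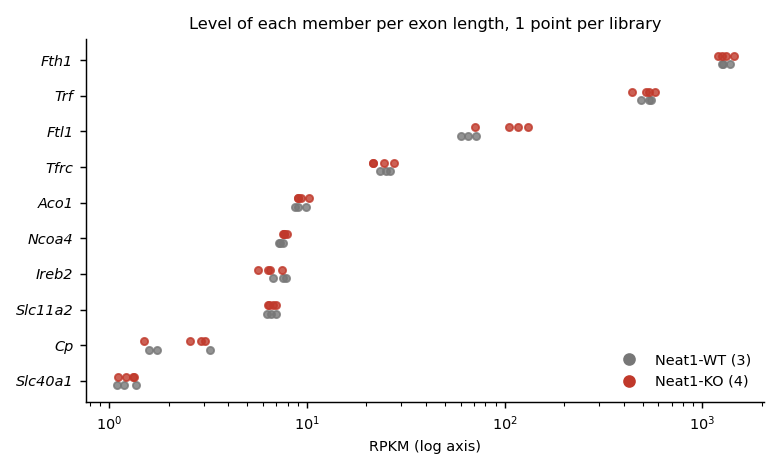
RPKM of each gene on a log axis, 1 point per library, in *Neat1*-WT (grey, 3 libraries) and *Neat1*-KO (red, 4 libraries). The genes run from *Slc40a1* near 1.22 RPKM to *Fth1* near 1282 RPKM, and only *Ftl1* and *Cp* spread by a factor over 2 between their lowest and highest library.

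*Ftl1* lies on chromosome 7 (chr7:45457944-45459884, minus strand). It had 80.7, 96.2 and 87.5 CPM in *Neat1*-WT 2, 3 and 4, and 95.5, 175.9, 140.9 and 156.7 CPM in *Neat1*-KO 1, 2, 3 and 4. *Neat1*-KO 2, 3 and 4 were above every *Neat1*-WT library, and *Neat1*-KO 1 was among the *Neat1*-WT libraries, so the genotypes overlapped. The highest library was 2.18 times the lowest, and the coefficient of variation was 24.1% in *Neat1*-KO and 8.8% in *Neat1*-WT. On the log2 scale the edgeR difference, *Neat1*-KO minus *Neat1*-WT, was 0.69 (SE 0.16). Without *Neat1*-KO 1 it was 0.84 and without *Neat1*-KO 2 it was 0.57, the latter below the minimum of 0.58 for a call.

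*Fth1* lies on chromosome 19 (chr19:9980598-9985098, plus strand), 4135119 bases from *Neat1*. It had 4389, 4789 and 4446 CPM in *Neat1*-WT 2, 3 and 4, and 4147, 4574, 4391 and 5001 CPM in *Neat1*-KO 1, 2, 3 and 4. The lowest and the highest library were both *Neat1*-KO. The log2 difference was -0.0042 (SE 0.0744, edgeR adjusted p = 0.997, 95% interval -0.165 to 0.157). Within a library, the *Ftl1* count was 1.84%, 2.01% and 1.97% of the *Fth1* count in *Neat1*-WT 2, 3 and 4, and 2.3%, 3.85%, 3.21% and 3.13% in *Neat1*-KO 1, 2, 3 and 4. This ratio was higher in every *Neat1*-KO library than in any *Neat1*-WT library, with *Neat1*-KO 1 nearest to them. It uses the *Ftl1* values that chose the gene and is given as a description.

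**Figure D3:**
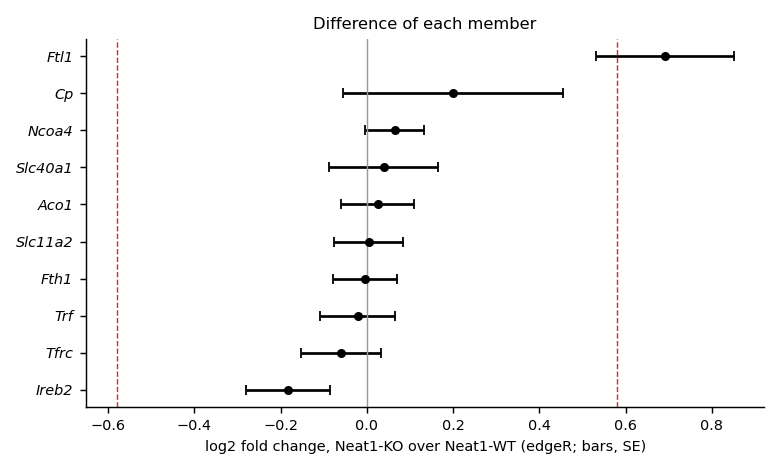
Log2 fold change of each member, *Neat1*-KO over *Neat1*-WT, from the edgeR fit to 7 libraries (points) with its SE (bars), and dashed lines at the minimum for a call of 0.58 in either direction. *Ftl1*, chosen on this difference, stands at 0.69, *Cp* at 0.20 with the widest bar of 0.255, *Ireb2* at -0.18, and the other 7 lie between -0.0597 and 0.0642.

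Processed ferritin genes copied back into the genome are numerous, and a light-chain read can belong to *Ftl1* or to a copy. At 90% identity or more over at least 50% of the copy, *Ftl1* was matched by 21 annotated entries of the count table, of which 13 are miRNA genes and 7 processed pseudogenes. They are not 21 separate copies, since 1 of the miRNA entries lies within *Ftl1* itself and 7 lie on another of the entries. Of the 21, 4 reached 10 counts in a library. *Fth1* was matched by 1 such entry, *Ncoa4* by 1 and *Slc11a2* by 3, none of the last with a count. Over the 549 coding bases aligned, *Ftl1* and *Ftl2-ps* differed at 7. The pseudogene (chr4:125504288-125504839) is 98.7% identical to *Ftl1* over 552 aligned bases and lies in an intron of *Grik3*, on the same strand, where it runs into an annotated miRNA gene.

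*Ftl2-ps* was read in some libraries and nearly absent from others. It had 314, 325 and 233 counts in *Neat1*-WT 2, 3 and 4, and 272, 0, 0 and 1 counts in *Neat1*-KO 1, 2, 3 and 4. The 3 libraries at or near 0 are those in which *Ftl1* was highest, and *Neat1*-KO 1, where *Ftl1* was among the *Neat1*-WT values, had the pseudogene at the *Neat1*-WT level. The genotypes overlapped, and the difference did not pass the test (edgeR adjusted p = 0.992). *Ftl1-ps2*, on chromosome 10 and 97.8% identical, had 7, 12 and 4 counts in *Neat1*-WT 2, 3 and 4, and 9, 0, 0 and 0 in *Neat1*-KO 1, 2, 3 and 4, and was too low to be tested. It was thus at 0 in the 3 libraries in which *Ftl2-ps* had 0 or 1 count, and a count of 0 allows up to 3 counts. The strain makeup of each mouse at these loci, in a line bred with B6/SJLF1 females, is not given in the sources used here, and its part in these counts was not tested.

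The other 2 copies with at least 10 counts were read in every library. *Ftl1-ps1*, on chromosome 13, is annotated as protein coding and is 99.6% identical to *Ftl1*. It had 15, 18 and 19 counts in *Neat1*-WT 2, 3 and 4, and 14, 35, 28 and 23 in *Neat1*-KO 1, 2, 3 and 4. After scaling to library size, *Neat1*-KO 2 and 3 were its highest libraries at 1.41 and 1.3 CPM, *Neat1*-WT 4 at 0.969 CPM was above *Neat1*-KO 4 at 0.877 CPM, and its log2 difference was 0.38 (SE 0.34, edgeR adjusted p = 0.992). *Gm15590*, a processed pseudogene on chromosome 17 with 99.1% identity, had 16, 15 and 11 counts in *Neat1*-WT 2, 3 and 4, and 11, 6, 7 and 3 in *Neat1*-KO 1, 2, 3 and 4, with the 3 lowest counts in *Neat1*-KO 2, 3 and 4 as well. Its log2 difference was -1.13 (SE 0.49, edgeR adjusted p = 0.992).

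Summed with its copies, *Ftl1* differed less between the genotypes. Reads that match *Ftl1* and a copy equally well are in none of these counts, so the sum does not restore them. It is made up mostly of the *Ftl1* values that chose the gene and is given as a description. With the 21 entries of at least 90% identity, the summed level was 96.9, 114.1 and 101.3 CPM in *Neat1*-WT 2, 3 and 4, and 111.7, 177.6, 142.5 and 157.8 CPM in *Neat1*-KO 1, 2, 3 and 4. The same 3 *Neat1*-KO libraries were highest, and *Neat1*-KO 1 stayed below *Neat1*-WT 3. The log2 difference of the sum was 0.50 (SE 0.13), under the minimum for a call, against 0.69 for *Ftl1* alone. For *Fth1*, whose copies held at most 7 counts in a library, the sum left the log2 difference at -0.0042.

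**Figure D4:**
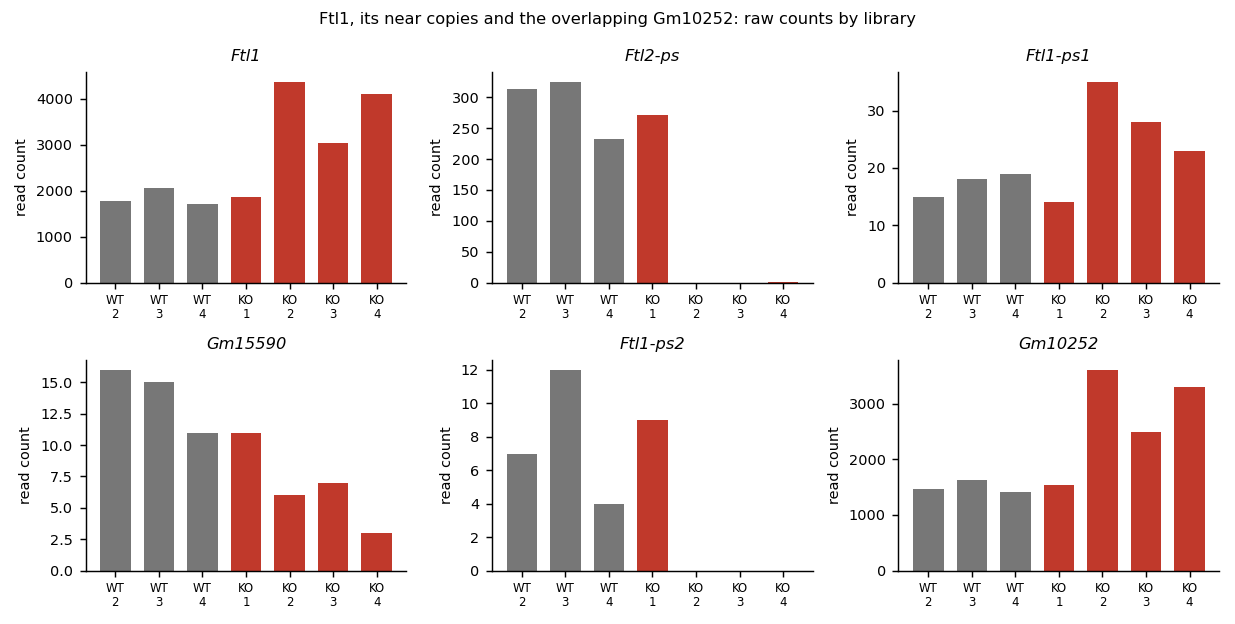
Raw read counts (vertical axis, from 0, on a scale of its own in each panel) of *Ftl1*, of its 4 copies with at least 10 counts in a library, and of *Gm10252*, in the 3 *Neat1*-WT libraries (grey) and the 4 *Neat1*-KO libraries (red). *Ftl2-ps* has 233 to 325 counts in *Neat1*-WT and 272 in *Neat1*-KO 1 but 0, 0 and 1 in *Neat1*-KO 2, 3 and 4, where *Ftl1* and *Gm10252* are highest.

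*Gm10252* is an annotated transcript of unknown coding status (chr7:45459469-45460300) that lies opposite *Ftl1* and shares 355 exon bases with it, including those of the hairpin. It had 66.0, 76.4 and 72.1 CPM in *Neat1*-WT 2, 3 and 4, and 78.9, 145.4, 115.3 and 125.6 CPM in *Neat1*-KO 1, 2, 3 and 4. Its count was between 79.4% and 82.7% of the *Ftl1* count in each of the 7 libraries. The kit kept the strand of the RNA, but the strand setting of the counting is not given in the sources used here, so reads of *Ftl1* and of this transcript cannot be told apart. Summed with *Gm10252*, *Ftl1* differed by 0.70 on the log2 scale, a sum added after seeing the data.

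Among the 10907 tested genes with a mean of at least 10 CPM other than *Ftl1*, *Gm10252* lay nearest to *Ftl1* in its pattern over the 7 libraries, with a root mean square difference of 0.0209 in centred log2 CPM, beside 0.415 for the spread of *Ftl1* itself. *Pisd-ps1* on chromosome 11 followed at 0.125, then *Tmprss5* on chromosome 9 at 0.159, *Pisd-ps2* on chromosome 17 at 0.167 and *Dbp* on chromosome 7 (chr7:45705088-45710203) at 0.177. *Pisd-ps1* and *Pisd-ps2* are annotated as transcribed unprocessed pseudogenes, and *Dbp* encodes a transcription factor with a daily rhythm. *Fth1* stood at place 2249, with 0.385. Since these genes were picked for likeness to *Ftl1*, their own differences are not tested here.

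Within 100 kb of *Ftl1*, and besides *Gm10252*, 13 tested genes had log2 differences between -0.28 and 1.08, and none was called. *Bax*, an apoptosis gene that lies beyond the 5′ end of *Ftl1*, had a log2 difference of -0.0319 (SE 0.106), and *Gys1*, glycogen synthase on its other side, of -0.0675 (SE 0.0891). *Plekha4*, at the far end of the window and named after its values were seen, had 1.95, 2.05 and 8.82 CPM in *Neat1*-WT 2, 3 and 4, and 2.62, 13.8, 8.68 and 10.5 CPM in *Neat1*-KO 1, 2, 3 and 4 (log2 difference 1.08, SE 0.54, edgeR adjusted p = 0.992). *Grik3*, the kainate receptor gene around *Ftl2-ps*, had a log2 difference of 0.13 (SE 0.10, edgeR adjusted p = 0.992) and was read in all 7 libraries, at 31.5 to 41.7 CPM.

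Iron uptake genes overlapped between the genotypes. *Tfrc*, the transferrin receptor, had 162.4, 144.2 and 155.2 CPM in *Neat1*-WT 2, 3 and 4, and 171.4, 134.2, 133.5 and 151.7 CPM in *Neat1*-KO 1, 2, 3 and 4. *Neat1*-KO 1 was the highest library and *Neat1*-KO 2 and 3 were the lowest. On the log2 scale the difference was -0.06 (SE 0.0926, edgeR adjusted p = 0.992, 95% interval -0.26 to 0.141). *Slc11a2*, the endosomal importer, was among the steadiest genes, with 41.7, 44.4 and 40.0 CPM in *Neat1*-WT 2, 3 and 4, and 42.9, 40.1, 41.1 and 44.4 CPM in *Neat1*-KO 1, 2, 3 and 4. Its log2 difference was 0.0037 (SE 0.0794, edgeR adjusted p = 0.997, 95% interval -0.168 to 0.176). *Gm5475*, which shares 402 exon bases with it on the other strand, had at most 2.85 CPM.

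*Trf*, transferrin, had 1629, 1786 and 1829 CPM in *Neat1*-WT 2, 3 and 4, and 1470, 1782, 1724 and 1912 CPM in *Neat1*-KO 1, 2, 3 and 4. Both the lowest and the highest library were *Neat1*-KO, and the log2 difference was -0.02 (SE 0.0863, edgeR adjusted p = 0.996, 95% interval -0.209 to 0.166). The 10 oligodendrocyte markers summed to between 35128 and 38098 CPM in *Neat1*-KO and between 36923 and 45176 CPM in *Neat1*-WT. Of these 10, 9 had a log2 difference below 0, beside 48.2% of all tested genes, and 0 were called. An unadjusted p under 0.05 was found for 4, beside 4.64% of all tested genes. Libraries did not overlap between the genotypes for 3, beside 5.47% of all tested genes. No marker was at 0 in every library, *Mbp*, a myelin protein, was the most abundant, and their part in the *Trf* values was not tested.

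Iron export genes were the lowest of the group and did not pass the test. *Slc40a1*, ferroportin, had 10.6, 9.8 and 12.2 CPM in *Neat1*-WT 2, 3 and 4, and 12, 9.88, 11 and 11.9 CPM in *Neat1*-KO 1, 2, 3 and 4. The genotypes overlapped, with a log2 difference of 0.04 (SE 0.126, edgeR adjusted p = 0.996, 95% interval -0.235 to 0.313). *Cp*, ceruloplasmin, is made in the cord by astrocytes and at its surface by leptomeningeal cells. It had 15.1, 16.7 and 31.0 CPM in *Neat1*-WT 2, 3 and 4, and 14.3, 29.1, 27.7 and 24.5 CPM in *Neat1*-KO 1, 2, 3 and 4. The high libraries, *Neat1*-WT 4 and *Neat1*-KO 2, 3 and 4, came from both genotypes, and the highest was 2.17 times the lowest. Between the genotypes the log2 difference was 0.20 (SE 0.255, edgeR adjusted p = 0.992, 95% interval -0.354 to 0.751). It was 0.59 (SE 0.22, edgeR adjusted p = 0.918) without *Neat1*-WT 4 and 0.0084 (edgeR adjusted p = 1) without *Neat1*-WT 2.

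Markers of the meninges, and of other cell types as well, moved with *Cp* from library to library. The 8 meninges markers summed to 86.2, 139.3 and 257.5 CPM in *Neat1*-WT 2, 3 and 4, and to 88.9, 249, 200 and 181.5 CPM in *Neat1*-KO 1, 2, 3 and 4. The 4 libraries with the most *Cp* were the 4 with the highest sum. None of the 8 was at 0 in every library and 0 were called, and *Col1a2*, a collagen gene and the most abundant of them, ranged from 29.9 to 84.8 CPM. The 10 astrocyte markers summed to 7765, 7940 and 9048 CPM in *Neat1*-WT 2, 3 and 4. In *Neat1*-KO 1, 2, 3 and 4 they summed to 7452, 8933, 8895 and 8057 CPM, which puts the libraries in the same order as *Cp*. The 6 choroid plexus markers summed to between 5.97 and 8.63 CPM, with 1 of the 6 at 0 in every library. The same 4 libraries were highest for the choroid plexus and microglia marker sums. The part of these cell types in the *Cp* values was not tested. Within *Neat1*-KO, *Ftl1* and the meninges sum were both lowest in *Neat1*-KO 1 and both highest in *Neat1*-KO 2, with *Neat1*-KO 3 and 4 in opposite order. Within *Neat1*-WT, both were lowest in *Neat1*-WT 2. *Neat1*-WT 4, with the highest meninges sum, had 87.5 CPM of *Ftl1*, below *Neat1*-WT 3 at 96.2 CPM. The part of the meninges in the *Ftl1* values was not tested.

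**Figure D5:**
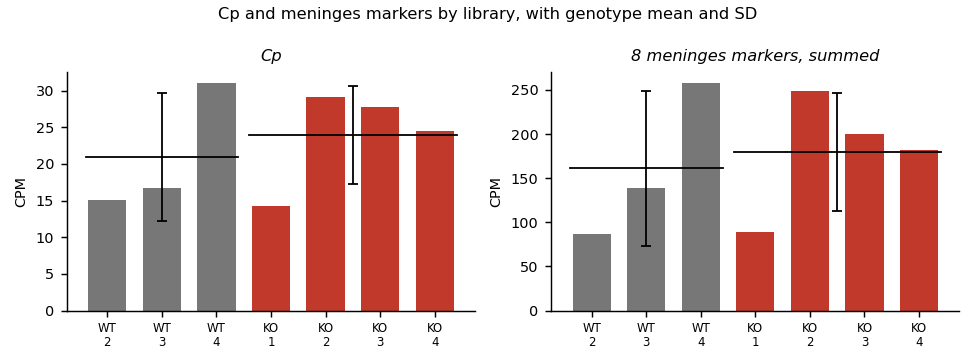
CPM of *Cp* (left) and the summed CPM of 8 meninges markers (right), both from 0, in the 3 *Neat1*-WT libraries (grey) and the 4 *Neat1*-KO libraries (red), with the genotype mean (line) and SD (whisker). *Neat1*-WT 4 and *Neat1*-KO 2, 3 and 4 are the 4 highest libraries in both panels, and *Neat1*-WT 2 and *Neat1*-KO 1 are the 2 lowest.

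The genes of the iron sensors overlapped between the genotypes. *Aco1*, which encodes iron regulatory protein 1 and doubles as the cytosolic aconitase, had 38.9, 44.6 and 40.6 CPM in *Neat1*-WT 2, 3 and 4, and 45.7, 40.5, 41.9 and 40.4 CPM in *Neat1*-KO 1, 2, 3 and 4 (log2 difference 0.03, SE 0.0844, edgeR adjusted p = 0.996). The 95% interval was -0.158 to 0.208. *Ireb2*, which encodes iron regulatory protein 2, had 73.9, 64.0 and 71.8 CPM in *Neat1*-WT 2, 3 and 4, and 60, 53.6, 71 and 61.9 CPM in *Neat1*-KO 1, 2, 3 and 4. *Neat1*-KO 1, 2 and 4 were below every *Neat1*-WT library and *Neat1*-KO 3 was not. The log2 difference was -0.18 (SE 0.0979, edgeR adjusted p = 0.992, 95% interval -0.395 to 0.0296), the largest after *Ftl1* and *Cp*.

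*Ncoa4* had 70.7, 68.8 and 67.3 CPM in *Neat1*-WT 2, 3 and 4, and 74.3, 70.8, 71.8 and 71.5 CPM in *Neat1*-KO 1, 2, 3 and 4. Every *Neat1*-KO library was above every *Neat1*-WT library, by as little as 70.8 against 70.7 CPM, and 5.47% of all tested genes had such a split in either direction. Its log2 difference was 0.06 (SE 0.0692, edgeR adjusted p = 0.992, 95% interval -0.0858 to 0.214). *Gm6768*, a processed pseudogene on chromosome 12 that differs from *Ncoa4* at 2 of 1878 aligned bases, had 12.9, 11.7 and 12.5 CPM in *Neat1*-WT 2, 3 and 4, and 14.3, 13.4, 14.9 and 14.8 CPM in *Neat1*-KO 1, 2, 3 and 4. Its libraries did not overlap either (log2 difference 0.21, SE 0.10, edgeR adjusted p = 0.992), and reads of the pair are uncertain because so few bases tell them apart.

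Beyond the 10 genes, 6 lists of iron and redox genes held 88 genes, of which 76 were tested. None of the 76 was called by edgeR, 0 had an unadjusted p under 0.05, beside 4.64% of all tested genes, and DESeq2 called 0. The log2 difference was above 0 for 44 and below 0 for 32, with a median of 0.02, and libraries did not overlap for 2 of them (2.63%, beside 5.47% of all tested genes). Among genes of cellular iron uptake and reduction, 9 of 12 were tested, with a median of 0.014, and *Slc39a14*, a zinc and iron importer, had a log2 difference of -0.16 (SE 0.0863, edgeR adjusted p = 0.992) with 30.4 to 36.5 CPM in *Neat1*-KO and 38.2 to 39.1 CPM in *Neat1*-WT. *Steap2*, a metalloreductase and the most abundant of that list, had -0.0952 (SE 0.0853, edgeR adjusted p = 0.992). In the list of export and systemic control 6 of 11 were tested, with a median of -0.0684, and *Neo1*, neogenin, a receptor that works with hemojuvelin, had -0.14 (SE 0.0933, edgeR adjusted p = 0.992).

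Among iron chaperones and sensors, 9 of 10 genes were tested, with a median log2 difference of 0.02. *Pcbp2*, a chaperone that hands iron to ferritin, had -0.0335 (SE 0.0721), and *Hif1a*, a sensor of oxygen, had 0.0882 (SE 0.0776). Of the genes of mitochondrial iron and iron-sulfur clusters, 22 of 23 were tested and 16 were above 0, with a median of 0.0432. *Isca2*, a cluster assembly factor, had 0.23 (SE 0.116, edgeR adjusted p = 0.992). Of the heme genes, 18 of 20 were tested, 9 in each direction. *Slc48a1*, a heme transporter, had -0.0931 (SE 0.0641), and *Abcb6*, a porphyrin transporter at 0.202 to 0.815 CPM, had -0.89 (SE 0.483, edgeR adjusted p = 0.992).

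The light and heavy chain genes are also targets of NRF2, the transcription factor of the response to oxidants, and 12 other NRF2 targets were listed. All 12 were tested, 7 were above 0 and 5 below, 0 were called and the median log2 difference was 0.015. Libraries did not overlap for 1, *Txnrd1*, a thioredoxin reductase named after its values were seen, at 84.2 to 88 CPM in *Neat1*-KO and 88.8 to 90.5 CPM in *Neat1*-WT (log2 difference -0.0594, SE 0.0664, edgeR adjusted p = 0.992). *Prdx1*, a peroxiredoxin and the most abundant of them, had 147.5 to 199.2 CPM in *Neat1*-KO and 166.7 to 174.4 CPM in *Neat1*-WT (log2 difference 0.0023, SE 0.091). *G6pdx*, which supplies NADPH, had 0.11 (SE 0.0847, edgeR adjusted p = 0.992). Microglia, another store of ferritin, had a summed marker level of 351.9 to 474.8 CPM in *Neat1*-KO and 326.1 to 442.3 CPM in *Neat1*-WT. Of the 10 markers, 9 were above 0, beside 9561 of the 18449 genes tested, and 0 were called. Red blood cell markers, which bring heme and iron with any blood in the tissue, summed to 5.43 to 12.1 CPM in *Neat1*-KO and 8 to 13.4 CPM in *Neat1*-WT. The motor neuron markers were below 0 in 7 of 7, beside 48.2% of all tested genes. Of them, 3 had an unadjusted p under 0.05, beside 4.64% of all tested genes, and 0 were called. They summed to between 280.5 and 340.6 CPM in *Neat1*-KO and 363.3 and 431.9 CPM in *Neat1*-WT. Their part in the values of the iron genes was not tested.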

How the data were processed

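The authors sequenced stranded poly(A) libraries as read pairs, trimmed them with Trimmomatic 0.38, aligned to mm10 with HISAT2 2.1.0 and counted uniquely mapped reads with featureCounts 1.6.3, per the study's methods and the submitters' processing notes. They deposited raw counts per gene. The annotation release and strand setting are not given in the sources used here. All 7 per-sample columns were used.

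Names and positions came from GENCODE M21, which names 55227 of 55487 genes, and the other 260 hold 0.0045% of the counts. The members and gene lists were chosen with earlier results of these data known. Genes named by rule were the members, their copies with at least 10 counts, the most abundant and the lowest-p gene of each iron list, the 5 genes nearest to *Ftl1* in pattern, and the most abundant gene of each marker list. *Neat1* and *Xist* were named as checks. Also named were *Gm10252*, *Gm5475*, *Bax*, *Gys1* and *Grik3*, which overlap or lie next to a member or copy. *Plekha4* and *Txnrd1* were named after their values were seen. Items withheld from this text are not reported here. No p-value was adjusted over the members alone.

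Genes were filtered by filterByExpr, scaled by TMM (factors 0.991 to 1.008) and tested by edgeR 4.0.16 (quasi-likelihood, Benjamini-Hochberg) in R 4.3.3, with DESeq2 1.42.0 and limma 3.58.1 as alternatives, and the tests were checked on simulated data. Log2 CPM for likeness used a pseudocount of 0.5. Copies were found by BLAST 2.17.0. Intervals are for the edgeR log2 difference between the genotypes. They rest on the variation between these libraries, with its estimate shared in part across genes. A count of 0 allows up to 3 counts, which covers counting error only. No 2 libraries of the same genotype agreed within sampling noise (chi-square per gene 8.153 to 18.1).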

Additional observations from a re-analysis of the deposited data

Results flagged for a closer look

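In the 4 *Neat1*-KO libraries, 57 values were examined for 1 library far from the other 3, and 5 were found. Chance alone gives about 1 in 20, or 2.85, for values with a normal distribution. Counts near 0, as of *Ftl1-ps2* and *Abcb6*, do not meet this. *Ftl2-ps* and *Ftl1-ps2* share a pattern, so they are not separate flags. *Ftl2-ps* had 14, 0, 0 and 0.0381 CPM in *Neat1*-KO 1, 2, 3 and 4, so that *Neat1*-KO 1 stood apart by 0.997 of the whole range. *Ftl1-ps2* had 0.462 CPM in *Neat1*-KO 1 and 0 in the others, a gap of 1 of the range. *Isca2* was highest in *Neat1*-KO 1, with 33.8 CPM against 25.9 to 27.2 CPM, a gap of 0.832. *Kl*, a choroid plexus marker, was lowest there, with 3.34 CPM against 5.19 to 5.38 CPM, a gap of 0.904. *Abcb6* was highest in *Neat1*-KO 4, with 0.572 CPM against 0.202 to 0.257 CPM, a gap of 0.851. *Ftl1* itself did not meet this criterion.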

How the results depend on the processing

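The number of called genes, 6 in the fit reported, was 124 without a filter on low counts, 27 by DESeq2, 39 with the replicate block and between 3 (without *Neat1*-WT 3) and 31 (without *Neat1*-KO 1), with 11 without *Neat1*-WT 4. Called members numbered 1, *Ftl1*, instead of 0 without a filter, by DESeq2, with the replicate block and without *Neat1*-KO 1, and ranged from 0 to 1 as each library was left out. As *Ftl1* was chosen on this difference, these calls support nothing. Label 1 occurs only in *Neat1*-KO, so the replicate block takes *Neat1*-KO 1 out of the genotype difference. It is thus close to the fit without *Neat1*-KO 1, with *Ftl1* at 0.838 in both, and the 2 are not separate alternatives. The cause of the other changes in calls was not tested. Iron list genes called were 0 under every alternative run. The log2 difference of *Ftl1* ranged from 0.572 to 0.838 and stayed above 0, and over sums with its copies or with *Gm10252* it ranged from 0.502 to 0.696. For the other 9 members, 135 values under 15 settings gave 0 calls, and 21 changed sign, none larger than 0.0783 on the log2 scale. These were *Slc11a2* at -0.00184 with median-of-ratios factors and -0.00194 by DESeq2. With the replicate block *Fth1* was at 0.0346, *Trf* at 0.0474, *Slc11a2* at -0.00507 and *Aco1* at -0.0131. With *Xist* as a covariate *Fth1* was at 0.068, *Trf* at 0.0783 and *Aco1* at -0.0436. As *Xist* had at most 4 counts in any library, this covariate holds counts near 0 and cannot adjust for sex. Over the fits that left out each library, the ranges were -0.0554 to 0.0348 for *Fth1*, -0.0757 to 0.0447 for *Trf*, -0.0327 to 0.0438 for *Slc11a2*, -0.0179 to 0.0823 for *Aco1* and -0.0322 to 0.127 for *Slc40a1*. Labels 2, 3 and 4 occur in both genotypes, but deviations of same-numbered libraries from their genotype means had correlations of -0.279, -0.194 and -0.0215, so the numbers were not taken to pair mice. The SE on the log2 scale was 0.483 for *Abcb6*, which had under 1 CPM in every library, so that only large differences of such a gene could be detected.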

Other observations

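The remaining marker lists hold no called gene by edgeR. Among 10 neuron markers 5 had a log2 difference below 0, beside 48.2% of all tested genes. An unadjusted p under 0.05 was found for 1, beside 4.64% of all tested genes. *Nefl*, a neurofilament and the most abundant, had 2653 to 3327 CPM in *Neat1*-KO and 2946 to 3480 CPM in *Neat1*-WT (log2 difference -0.14, SE 0.0877, edgeR adjusted p = 0.992). *Slc5a7*, the choline transporter of motor neurons and the most abundant of that list, had 87.7 to 140.8 CPM in *Neat1*-KO and 125.6 to 170.8 CPM in *Neat1*-WT (log2 difference -0.40, SE 0.14, edgeR adjusted p = 0.992). *Slc1a2*, the astrocyte glutamate transporter, differed by -0.0806 (SE 0.0822), *Flt1* of the endothelium by -0.078 (SE 0.117) and the beta-globin gene *Hbb-bs* by -0.2 (SE 0.332) on the log2 scale, each with libraries that overlapped between the genotypes.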
